A study of Sus scrofa with 12 samples.

Results

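The genes described here handle calcium in the cardiomyocyte, and they were followed in RNA of the infarcted heart wall of 12 pigs. A list of 10 genes was looked up by symbol in the gene table of the array, which named 6 of them, ATP2A2, PLN, SLN, RYR2, CASQ2 and CAMK2D, each by 1 of the 27558 probe sets. SLC8A1, TRDN, HRC and JPH2 were not named by that table and were not analysed here. All pigs were Large White pigs, female by the methods of the study, in which a balloon had occluded the left anterior descending coronary artery before reperfusion. On day 3 post-infarction they received the treatment into the pericardial sac through a small thoracotomy, and 4 pigs were in each of 3 biogroups. AMI/Placebo received culture medium with insulin, transferrin and selenium alone, the vehicle. AMI/S-endMSCs received the same medium with the concentrated secretome of human endometrial mesenchymal stromal cells, isolated from menstrual blood. AMI/S-endMSCs* received an equal protein dose of secretome from such cells primed with IFNγ and TNFα. The tissue was a piece of the anterior left ventricular wall taken 7 days after therapy, read with 1 array per pig.

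Contraction of a heart muscle cell starts when calcium enters through channels of the cell surface and opens the ryanodine receptor RYR2, the channel through which the sarcoplasmic reticulum releases its store. CASQ2, calsequestrin, holds calcium inside that store. ATP2A2 encodes SERCA2, the pump that returns calcium to the reticulum and lets the cell relax, and the small membrane proteins phospholamban (PLN) and sarcolipin (SLN) restrain it. CAMK2D, the main cardiac calcium and calmodulin dependent kinase, phosphorylates both RYR2 and phospholamban. In large mammals sarcolipin is mainly a protein of the atria and of skeletal muscle, whereas a form of SERCA2 is also made by many cells that are not muscle.

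Values are log2 values after Robust Multichip Average (RMA), and a difference of 1 is a change by a factor of 2 in signal. Genes count as called where the p from limma, before adjustment, was under 0.05, and the Benjamini-Hochberg adjusted p over all probe sets is given beside it or for a group of genes at once. In the 3 comparisons 5.15%, 3.36% and 7.33% of all probe sets were called without adjustment, in the order AMI/S-endMSCs against AMI/Placebo, AMI/S-endMSCs* against AMI/Placebo and AMI/S-endMSCs* against AMI/S-endMSCs. With adjustment 0 were (smallest adjusted p 0.857, 0.342 and 0.552). Of the arrays, AMI/S-endMSCs replicate 1 stood apart, with the lowest interquartile range (1.66, against 1.80 to 2.51 elsewhere) and the lowest mean correlation with the other arrays (0.821, against 0.875 to 0.911). Replicate 4 of each biogroup came next in both. In AMI/Placebo, AMI/S-endMSCs and AMI/S-endMSCs* its interquartile range was 1.80, 1.93 and 1.81, and its mean correlation 0.875, 0.894 and 0.876. Of 22 listed marker genes of the cardiomyocyte, such as MYH7, MYL2 and TTN, 15 were measured. They are called contractile markers here, although FABP3 and CKMT2 among them serve energy metabolism. Each of the 15 was brighter on average than the median probe set (2.78). Their mean, with each gene centred on its own mean, came to -0.177 ± 1.04 for AMI/Placebo, to -0.808 ± 0.953 for AMI/S-endMSCs and to 0.985 ± 1.49 for AMI/S-endMSCs* (SD, n = 4 each). In a bulk piece, fewer cardiomyocytes and less RNA of a gene per cardiomyocyte cannot be told apart.

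All 6 calcium handling genes had the same order of biogroup means, lowest in AMI/S-endMSCs and highest in AMI/S-endMSCs*. The low means of AMI/S-endMSCs rested largely on replicate 1: against AMI/Placebo the median log2 fold change of the 6 was -0.57, and -0.22 without that array, with RYR2 at -0.22, CASQ2 at -0.21 and PLN at -0.48. Compared with AMI/S-endMSCs, 5 of the 6 were higher in AMI/S-endMSCs* (unadjusted p under 0.05), by log2 fold changes from 1.19 to 1.82, and SLN did not pass the test. Of all probe sets 4.1% were called higher and 3.23% lower there. Against AMI/Placebo 0 of 6 passed in either direction with either secretome, where 3.15% of all probe sets were called higher and 2% lower with S-endMSCs, and 1.92% higher and 1.44% lower with S-endMSCs*. After adjustment over all probe sets 0 passed in any comparison, the smallest adjusted p being 0.580. The spread between pigs of a biogroup was large in these genes: for RYR2 the SD within biogroups was 1.33, higher than that of 99.0% of probe sets, and for ATP2A2, the least variable of the 6, it was 0.513, higher than that of 66.2%.

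**Figure D1:**
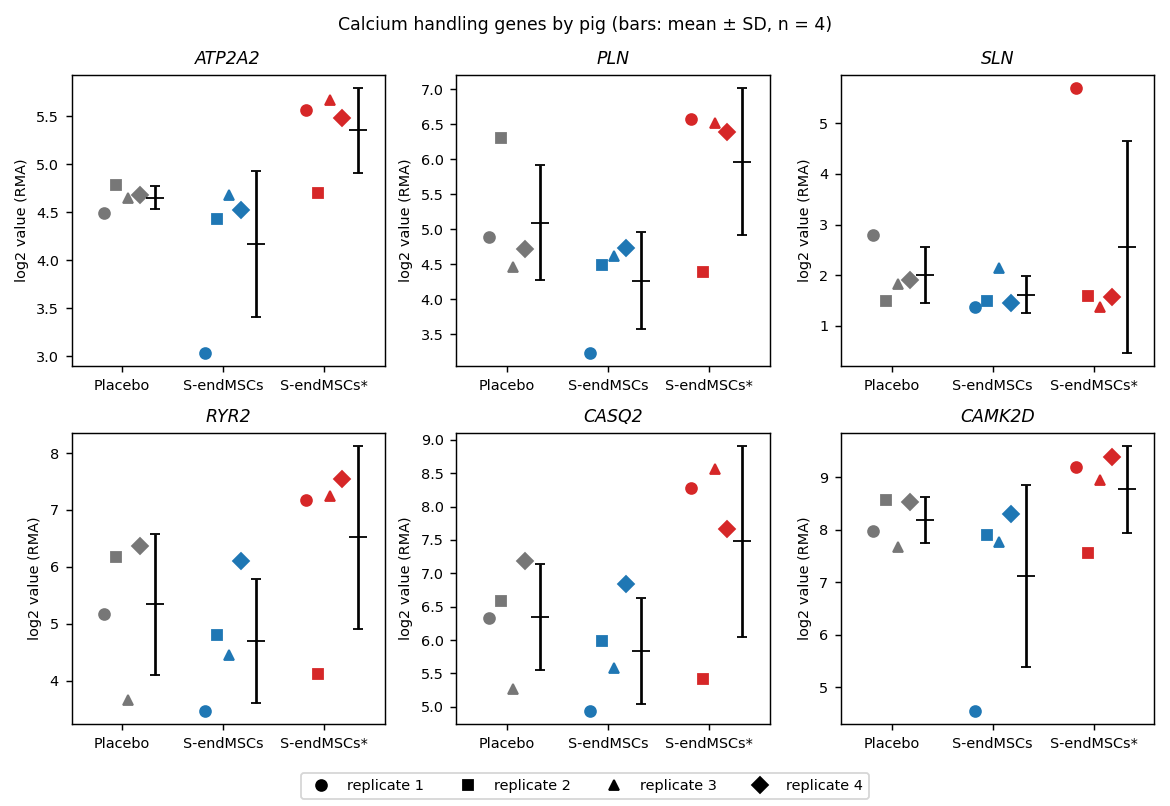
Log2 values (RMA, vertical axis) of the 6 calcium handling genes in each pig, by biogroup, with a marker shape per replicate number and the mean ± SD (n = 4) beside the points. AMI/S-endMSCs replicate 1 was lowest for every gene, at 3.04 for ATP2A2 and 4.55 for CAMK2D, and in AMI/S-endMSCs* replicate 2 lay below the other 3 pigs in all panels but that of SLN.

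ATP2A2, the SERCA2 pump, was nearly level among the AMI/Placebo pigs. Its log2 values were 4.49, 4.78, 4.65 and 4.68 in AMI/Placebo replicates 1 to 4. They were 3.04, 4.43, 4.68 and 4.52 in AMI/S-endMSCs, and 5.57, 4.70, 5.67 and 5.48 in AMI/S-endMSCs*. All 4 pigs of AMI/S-endMSCs* lay above all 4 of AMI/S-endMSCs, by a narrow margin for replicate 2 of the former, which lay within the range of AMI/Placebo. The means were 4.65 ± 0.119, 4.17 ± 0.762 and 5.36 ± 0.442 (SD, n = 4 each). Between the treated biogroups ATP2A2 differed by 1.19 on the log2 scale (95% interval 0.46 to 1.92), with an unadjusted p of 0.00361 and an adjusted p of 0.580 from limma. Without overlap of these biogroups were 3.41% of all probe sets (1.49% higher and 1.92% lower in AMI/S-endMSCs*), and among the 6 genes ATP2A2 alone. Against AMI/Placebo 0 of the 6 were free of overlap, where 2.7% of all probe sets were so for AMI/S-endMSCs (1.78% higher, 0.918% lower) and 1.97% for AMI/S-endMSCs* (1.04% higher, 0.933% lower). Against AMI/Placebo the log2 fold change was -0.48 in AMI/S-endMSCs (95% interval -1.21 to 0.25, unadjusted p = 0.176) and 0.70 in AMI/S-endMSCs* (95% interval -0.03 to 1.43, unadjusted p = 0.0575). The former was -0.11 (unadjusted p = 0.680) without AMI/S-endMSCs replicate 1.

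PLN, whose product slows the pump until it is phosphorylated, spread more widely. AMI/Placebo pigs had log2 values of 4.89, 6.30, 4.46 and 4.72, AMI/S-endMSCs pigs 3.23, 4.49, 4.61 and 4.73, and AMI/S-endMSCs* pigs 6.57, 4.39, 6.51 and 6.40. In AMI/S-endMSCs* 3 of 4 pigs lay above every other pig, while replicate 2 lay below all but 1 of the 12, and AMI/Placebo replicate 2 came close to the highest 3. Means were 5.09 ± 0.826 in AMI/Placebo, 4.27 ± 0.698 in AMI/S-endMSCs and 5.97 ± 1.06 in AMI/S-endMSCs* (SD, n = 4 each). PLN was higher in AMI/S-endMSCs* than in AMI/S-endMSCs, by 1.70 on the log2 scale (95% interval 0.57 to 2.83), with an unadjusted p of 0.00612 and an adjusted p of 0.580 from limma. The log2 fold changes against AMI/Placebo, -0.83 and 0.87, did not pass (unadjusted p = 0.138 and 0.120).

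The log2 difference between an inhibitor and the pump shows whether the pair moved unequally between pigs, although its absolute size, set by different probes, has no meaning. PLN minus ATP2A2 was 0.40, 1.52, -0.19 and 0.04 in AMI/Placebo replicates 1 to 4. In AMI/S-endMSCs it was 0.19, 0.06, -0.06 and 0.20, and in AMI/S-endMSCs* 1.0, -0.32, 0.84 and 0.92. It was thus close to constant in AMI/S-endMSCs (SD 0.126, n = 4), and 3 of 4 pigs of AMI/S-endMSCs* lay higher. The difference between the treated biogroups was 0.513 (exact permutation test, two-sided, p = 0.143, where the smallest possible is 0.0286). Over all 6 such tests, those of SLN minus ATP2A2 included, the adjusted p was 0.857 or more. Without AMI/S-endMSCs* replicate 2 the difference between the treated biogroups was 0.822 (exact permutation p = 0.0286, the smallest possible). Because the pig left out was the lowest of its biogroup, this p is no separate support for a difference. With each pig left out in turn the difference ran from 0.38 to 0.82 (exact permutation p from 0.0286 to 0.314).

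SLN, the other inhibitor, was dim in 11 pigs and bright in 1. AMI/S-endMSCs* replicate 1 had a log2 value of 5.70, and replicates 2 to 4 had 1.59, 1.38 and 1.58. In AMI/Placebo the values were 2.80, 1.49, 1.83 and 1.91, and in AMI/S-endMSCs 1.36, 1.49, 2.15 and 1.45. Apart from that pig the biogroups overlapped, and all 11 lay close to the median probe set (2.78) or below it, a range where the array may read background. The mean of 2.56 ± 2.10 (SD, n = 4) in AMI/S-endMSCs* therefore rests on 1 pig: its log2 fold change against AMI/Placebo was 0.55 (unadjusted p = 0.470), and without that pig -0.49 (unadjusted p = 0.143).

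Among 6 atrial markers measured on the same arrays, NPPA, the gene of atrial natriuretic peptide, was also highest in AMI/S-endMSCs* replicate 1. Its log2 value there was 9.46, against 2.50 to 6.08 in the other 11 pigs. MYL7, the atrial regulatory light chain, was 5.56 there and 2.19 to 5.02 elsewhere. The atrial light chain MYL4 (2.08), KCNJ3 (6.0), a potassium channel subunit, BMP10 (2.38), a growth factor of the atria, and TBX5 (4.73), a cardiac transcription factor, lay within the ranges of the other pigs. So did MYH1 (2.10) and MYLPF (2.23), genes of fast skeletal muscle fibres, and ACTA1 (9.50), the skeletal actin, which the heart also makes. The part of atrial or stressed tissue in the SLN value was not tested.

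**Figure D2:**
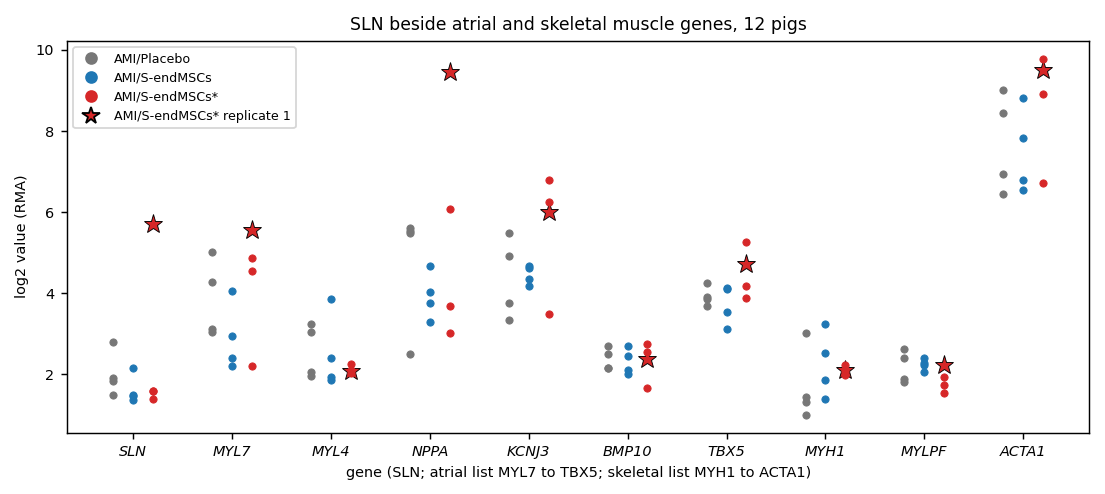
Log2 values (RMA, vertical axis) of SLN, of 6 atrial marker genes and of 3 skeletal muscle genes in 12 pigs, coloured by biogroup, with a star for AMI/S-endMSCs* replicate 1. The star stands far above the other pigs for SLN (5.70) and NPPA (9.46) and inside their range for MYL4 and MYLPF.

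RYR2, the release channel, had the widest within-biogroup spread of the 6 genes. Its log2 values were 5.16, 6.17, 3.66 and 6.37 in AMI/Placebo, 3.46, 4.80, 4.45 and 6.10 in AMI/S-endMSCs, and 7.17, 4.12, 7.24 and 7.54 in AMI/S-endMSCs*. Again 3 pigs of AMI/S-endMSCs* stood above all other pigs and replicate 2 stood among the lowest. The difference between the treated biogroups was 1.82 on the log2 scale (95% interval 0.15 to 3.49, unadjusted p = 0.0350 and adjusted p = 0.656 from limma). Against AMI/Placebo it was -0.64 with S-endMSCs (95% interval -2.31 to 1.03, unadjusted p = 0.426) and 1.18 with S-endMSCs* (95% interval -0.49 to 2.85, unadjusted p = 0.152). Neither passed, and both intervals are wide.

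CASQ2, the store protein, varied among the pigs much as RYR2 did. AMI/Placebo pigs had log2 values of 6.34, 6.59, 5.27 and 7.18, AMI/S-endMSCs pigs 4.93, 5.99, 5.58 and 6.84, and AMI/S-endMSCs* pigs 8.28, 5.41, 8.56 and 7.66. Its lowest value, as for RYR2, was in AMI/S-endMSCs replicate 1, and the 3 high pigs of AMI/S-endMSCs* were those that were high for RYR2 and PLN. CASQ2 was higher in AMI/S-endMSCs* than in AMI/S-endMSCs by 1.64 (95% interval 0.30 to 2.98, unadjusted p = 0.0197, adjusted p = 0.609). Against AMI/Placebo the log2 fold changes of -0.51 and 1.14 did not pass (unadjusted p = 0.430 and 0.0902).

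CAMK2D, the kinase, was measured at 7.98, 8.58, 7.67 and 8.54 in AMI/Placebo, at 4.55, 7.91, 7.77 and 8.29 in AMI/S-endMSCs and at 9.19, 7.56, 8.95 and 9.39 in AMI/S-endMSCs*. The value of 4.55 lay far below all others, which ran from 7.56 to 9.39. Its log2 fold change between the treated biogroups was 1.64 (95% interval 0.20 to 3.09, unadjusted p = 0.0283, adjusted p = 0.627), and 0.78 (unadjusted p = 0.0734) without that array. Against AMI/Placebo it was -1.06 in AMI/S-endMSCs (unadjusted p = 0.137), or -0.20 without that array (unadjusted p = 0.626), and 0.58 in AMI/S-endMSCs* (unadjusted p = 0.400).

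The calls between the treated biogroups did not all hold when an array was left out. Those of ATP2A2 and PLN held in each of the 12 fits that left out 1 array (unadjusted p from 0.00133 to 0.0128 and from 0.000228 to 0.0244). That of RYR2 was lost without any one of AMI/S-endMSCs replicates 1, 2 and 3 and AMI/S-endMSCs* replicates 1, 3 and 4 (unadjusted p from 0.0547 to 0.111). CASQ2 was not called without AMI/S-endMSCs replicate 1 or AMI/S-endMSCs* replicate 1 or 3 (unadjusted p from 0.0622 to 0.0703), nor CAMK2D without those or AMI/S-endMSCs* replicate 4 (unadjusted p from 0.0562 to 0.0742). Without AMI/S-endMSCs* replicate 2, 4 genes passed against AMI/Placebo: ATP2A2 (0.92, unadjusted p = 0.0195), PLN (1.40, unadjusted p = 0.00754), RYR2 (1.98, unadjusted p = 0.00846) and CASQ2 (1.83, unadjusted p = 0.00208). Their adjusted p ran from 0.229 to 0.536. Because the pig left out was the lowest of its biogroup for each of these 4 genes, these p are no separate support for a difference. ATP2A2 also passed in AMI/S-endMSCs* against AMI/Placebo without AMI/S-endMSCs replicate 1 (unadjusted p = 0.0103). That array lies outside both compared biogroups, so the log2 fold change stayed at 0.70 and only the shared estimate of the spread changed. PLN passed there without AMI/Placebo replicate 2 (1.28, unadjusted p = 0.0271), the highest pig of AMI/Placebo for PLN. The lowest contractile marker mean within AMI/S-endMSCs*, -1.25, was that of its replicate 2, against 1.59 to 1.85 in the other 3 pigs.

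The contractile markers moved with the calcium handling genes. Of the 15 measured, 11 were called higher in AMI/S-endMSCs* than in AMI/S-endMSCs and 0 were called lower. The median log2 fold change was 1.69 over the 15, beside 1.64 over the 6 calcium handling genes and -0.05 over all probe sets. Of all probe sets 4.1% were called higher in this comparison. Against AMI/Placebo 3 of the 15 were called higher in AMI/S-endMSCs*, where 1.92% of all probe sets were, and 0 were called in AMI/S-endMSCs. The log2 fold change was positive for 15 of 15 in AMI/S-endMSCs* (median 1.16) and for 1 of 15 in AMI/S-endMSCs (median -0.48). Over the 6 calcium handling genes these medians were 0.79 and -0.57. When the pigs were ordered by the marker mean, the 3 highest, AMI/S-endMSCs* replicates 1, 3 and 4, were also the 3 highest in the mean of the 6 genes, and the 3 lowest of both were the same pigs, from each of the biogroups.

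Within biogroups the 6 genes differed in how far they followed the markers. Per unit of the marker mean, RYR2 changed by 1.104 log2 units (95% interval 0.907 to 1.30, adjusted p = 0.000162 from limma) and CASQ2 by 0.868 (95% interval 0.679 to 1.06, adjusted p = 0.000227). Slopes of CAMK2D and PLN were 0.728 (95% interval 0.325 to 1.13) and 0.593 (95% interval 0.290 to 0.895), with adjusted p of 0.138 and 0.0986. ATP2A2 changed least among the genes bright in all pigs, by 0.297 (95% interval 0.053 to 0.540, adjusted p = 0.437), an interval that does not reach those of RYR2 and CASQ2, although the difference between slopes was not tested. It was 0.184 (adjusted p = 0.459) without AMI/S-endMSCs replicate 1. For SLN the slope was 0.200 (95% interval -0.442 to 0.842, adjusted p = 0.954), and it was -0.054 without AMI/S-endMSCs* replicate 1. Of all probe sets 0.566% had a positive slope at an adjusted p under 0.05. The slopes of RYR2 and CASQ2 passed in each fit that left out 1 array. That of CAMK2D passed without AMI/S-endMSCs replicate 1 (0.481, adjusted p = 0.0235) and that of PLN without AMI/Placebo replicate 4 (0.725, adjusted p = 0.00744). The largest adjusted p of these 5 genes came without AMI/S-endMSCs* replicate 2, the pig with the lowest marker mean of its biogroup. It was then 0.0132 for RYR2, 0.0425 for CASQ2, 0.614 for CAMK2D (slope 0.932), 0.958 for PLN (0.465) and 0.997 for ATP2A2 (0.301).

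**Figure D3:**
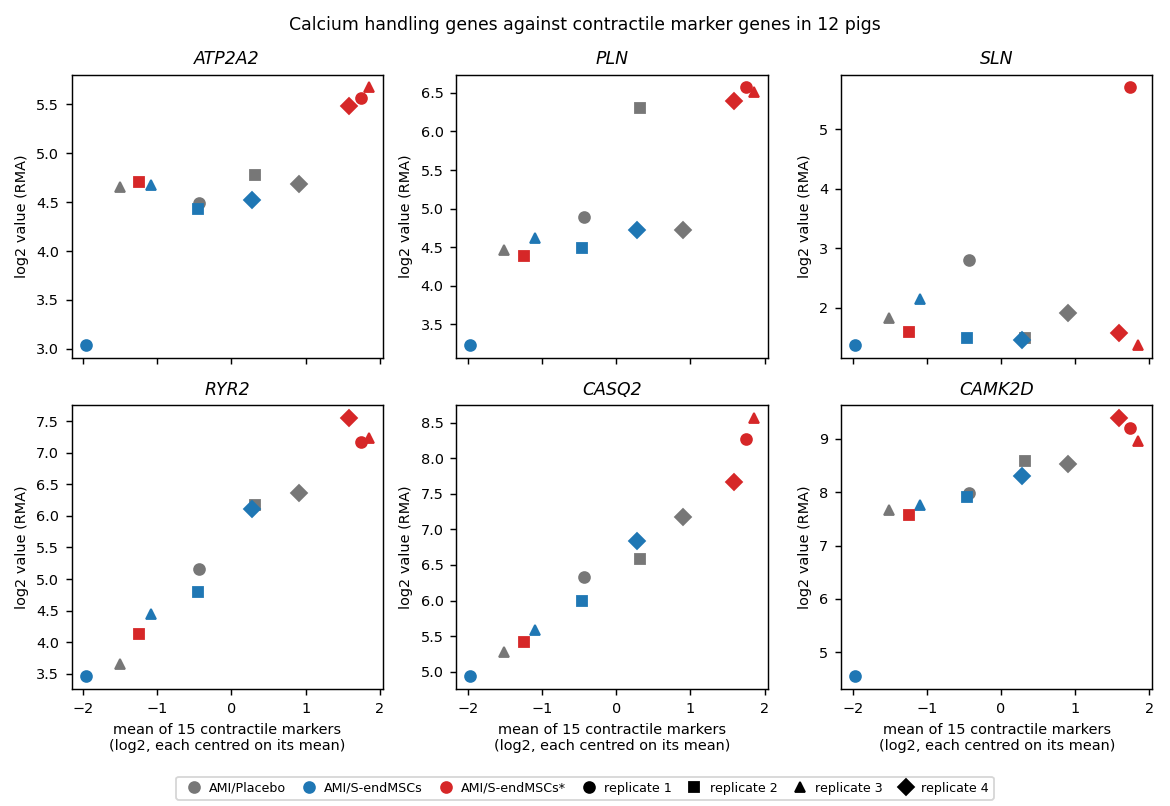
Log2 values (RMA, vertical axes) of the 6 calcium handling genes against the mean of 15 contractile marker genes (log2, each centred on its own mean, horizontal axes) in 12 pigs, with colours for biogroups and shapes for replicate numbers. RYR2 and CASQ2 rise along the whole axis, whereas ATP2A2 stays between 4.43 and 4.78 in 8 pigs and is higher only in 3 pigs of AMI/S-endMSCs*.

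With the marker mean as a covariate, 0 of the 6 genes were called between the treated biogroups. RYR2 and CASQ2, at 1.82 and 1.64 before, had log2 fold changes of -0.16 (95% interval -0.77 to 0.45) and 0.09 (95% interval -0.50 to 0.67). ATP2A2 and PLN had 0.66 (95% interval -0.10 to 1.41, unadjusted p = 0.0824) and 0.64 (95% interval -0.30 to 1.57, unadjusted p = 0.164). CAMK2D had 0.34 (95% interval -0.91 to 1.58). Whether the treatment itself altered the markers cannot be told apart from the amount of muscle in a piece, so the covariate fit is a second description of the same pigs.

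**Figure D4:**
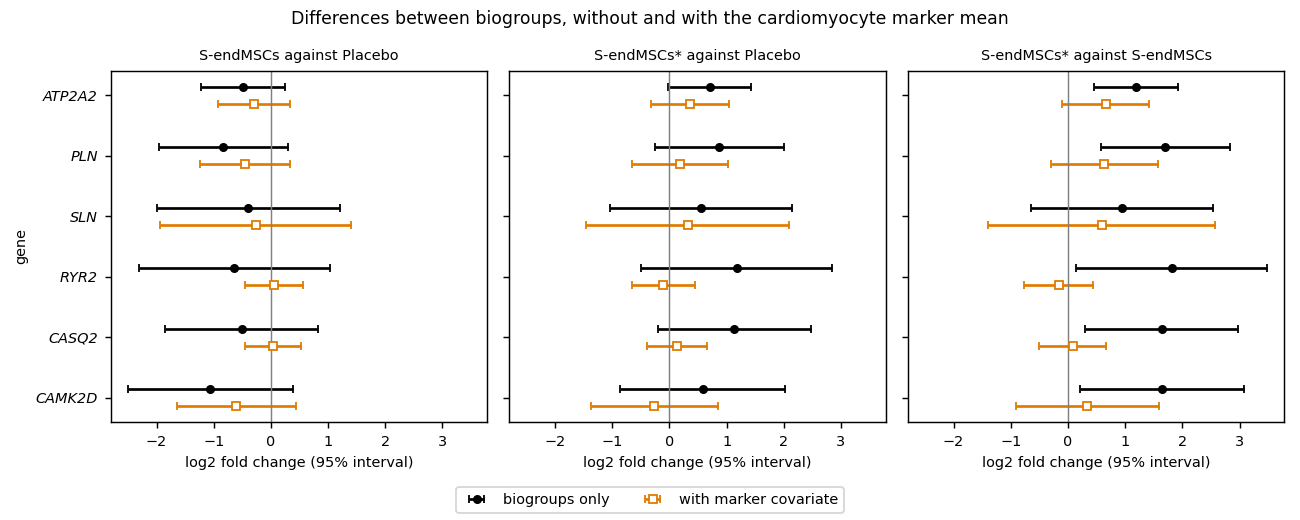
Log2 fold changes with 95% intervals (horizontal axis) of the 6 genes in the 3 comparisons, from biogroups alone (black circles) and with the contractile marker mean as a covariate (orange squares). Between the treated biogroups the interval lies above 0 for 5 genes, and with the covariate every interval holds 0 in each of the comparisons.

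Markers of other cell types were averaged in the same way. Over 12 macrophage and monocyte markers this mean was 0.304 ± 0.456 in AMI/Placebo, 0.037 ± 0.276 in AMI/S-endMSCs and -0.340 ± 0.534 in AMI/S-endMSCs* (SD, n = 4 each), and over 10 fibroblast and scar matrix markers 0.321 ± 0.557, -0.080 ± 0.667 and -0.241 ± 1.05. Over 4 neutrophil markers it was 0.331 ± 0.680, 0.123 ± 0.670 and -0.454 ± 1.06. Ranges of the biogroups overlapped for the 3 lists. Over the 12 arrays all 12 macrophage and all 4 neutrophil markers ran against the mean of the 6 calcium handling genes, with a median Pearson r of -0.497 (from -0.771 to -0.234) and -0.571 (from -0.768 to -0.368), and the fibroblast markers had a median of 0.067 (from -0.481 to 0.306). For T and NK cell, smooth muscle and pericyte, and endothelial markers the median r was -0.371, 0.077 and -0.104. These correlations share arrays and carry no test. The part of these cell types in the values of the calcium handling genes was not tested.

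Over the 12 arrays, the named genes most like the mean of the 6, outside calcium handling, were MAP3K20, a stress activated kinase (Pearson r = 0.974), ANKRD1, a cardiac ankyrin repeat protein (0.970), USP13, a deubiquitinase (0.967), and MYOT and LMOD2, proteins of the Z-disc and of the thin filament (0.966 and 0.957). The points share their arrays and the muscle content of each piece, and 3 of the 5 are genes of striated muscle. For the 15 contractile markers the median r was 0.922, beside -0.05 for 10851 named genes. Among the 6, the closest pair was RYR2 with CASQ2, with r of 0.962 over all arrays and 0.947 for deviations from the biogroup means. SLN was the least alike, with r from 0.291 to 0.384 against the other 5. These values describe the 12 arrays and carry no test.

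Beyond these 6 genes, 84 others of calcium handling were listed and 55 were measured. Of the 55, 13 were higher and 1 lower in AMI/S-endMSCs* than in AMI/S-endMSCs, which is 25.5%, where 7.33% of all probe sets were called. In AMI/S-endMSCs* against AMI/Placebo 6 were higher and 1 lower (12.7%), where 3.36% of all probe sets were called. In AMI/S-endMSCs against AMI/Placebo 2 were higher and 2 lower (7.27%), where 5.15% of all probe sets were called. None of these calls passed adjustment over all probe sets: the adjusted p of the called genes ran from 0.552 to 0.674 in the first comparison and was 1 after rounding in the second and 0.857 in the third. The median log2 fold changes were 0.36, 0.22 and -0.06, beside -0.05, 0.00 and 0.04 over all probe sets. With the contractile marker mean as a covariate the first of these counts was 2, the second 1 and the third 5. Left out alone, AMI/S-endMSCs replicate 1 gave 9 in the first comparison, AMI/S-endMSCs replicate 4 gave 9, AMI/S-endMSCs* replicate 3 gave 7 and AMI/S-endMSCs* replicate 1 gave 4. The second count was 1 without AMI/Placebo replicate 3 or AMI/S-endMSCs* replicate 1, 2 without AMI/Placebo replicate 1 or AMI/S-endMSCs* replicate 3, 4 without AMI/S-endMSCs* replicate 4, 14 without AMI/S-endMSCs* replicate 2 and 13 without replicate 2 of AMI/Placebo. The third was 1 without AMI/S-endMSCs replicate 1, 2 without AMI/S-endMSCs replicate 4 and also without replicate 1 or 2 of AMI/Placebo, 8 without AMI/S-endMSCs replicate 3 and 7 without replicate 4 of AMI/Placebo.

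Subunits of the surface calcium channel that triggers release were among those higher in AMI/S-endMSCs* than in AMI/S-endMSCs. CACNA1C, the pore of the L-type channel, had a log2 value of 3.90 ± 1.01 in AMI/S-endMSCs and 5.25 ± 0.640 in AMI/S-endMSCs* (SD, n = 4 each), a log2 fold change of 1.34 (unadjusted p = 0.0198 from limma). CACNB2, its cardiac beta subunit, was at 4.35 ± 0.631 and 5.86 ± 1.07 (1.51, unadjusted p = 0.00911). CACNA2D1, the alpha2delta subunit, was at 4.93 ± 1.80 and 7.00 ± 0.738 (2.07, unadjusted p = 0.00906). In all 3 the pigs of the 2 biogroups overlapped. The dim CACNA2D2, a related subunit, was the single gene lower in AMI/S-endMSCs*, and it was also higher in AMI/S-endMSCs than in AMI/Placebo (0.55, unadjusted p = 0.0223).

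Of 17 kinases, phosphatases and anchors, 6 were higher in AMI/S-endMSCs* than in AMI/S-endMSCs, where 4.1% of all probe sets were. AKAP6, which anchors protein kinase A near the ryanodine receptor, had the smallest p of all 55. It was 4.27 ± 0.610 in AMI/Placebo, 3.53 ± 0.426 in AMI/S-endMSCs and 4.95 ± 0.468 in AMI/S-endMSCs* (SD, n = 4 each), with no overlap between the treated biogroups (1.41, unadjusted p = 0.000927). AKAP6 was also lower in AMI/S-endMSCs than in AMI/Placebo (-0.74, unadjusted p = 0.0464), as was PPP2CA, a catalytic subunit of protein phosphatase 2A (-0.76, unadjusted p = 0.0374). CAMK2B, another calcium and calmodulin dependent kinase, was higher in AMI/S-endMSCs* than in AMI/S-endMSCs (1.19, unadjusted p = 0.0329) and in AMI/Placebo (1.16, unadjusted p = 0.0360). PDE4D, a cyclic AMP phosphodiesterase, was likewise higher in AMI/S-endMSCs* than in AMI/S-endMSCs (0.92, unadjusted p = 0.0196) and in AMI/Placebo (0.81, unadjusted p = 0.0367). CAMK2A, a form best known from neurons, was called higher in AMI/S-endMSCs* against AMI/Placebo (1.60, unadjusted p = 0.0213) but not against AMI/S-endMSCs (0.86, unadjusted p = 0.182).

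Among the 12 measured channels and partners of the reticulum, JPH1 and CASQ1, the forms of junctophilin and calsequestrin best known from skeletal muscle, were higher in AMI/S-endMSCs* than in both other biogroups. JPH1, whose mean over all arrays (2.59) lay below the median probe set (2.78), had log2 fold changes of 0.94 against AMI/S-endMSCs (unadjusted p = 0.00861) and 1.0 against AMI/Placebo (unadjusted p = 0.00569). CASQ1 had 1.23 (unadjusted p = 0.0341) and 1.12 (unadjusted p = 0.04999, just under the threshold). In AMI/S-endMSCs against AMI/Placebo, SYPL2, a membrane protein of the triad junction, was higher (0.60, unadjusted p = 0.0202) at a dim level. In AMI/S-endMSCs* against AMI/Placebo, CACNB1, the skeletal beta subunit, was higher (0.62, unadjusted p = 0.0323) and the dim CACNA1D, a pore subunit of pacemaker and neuroendocrine cells, was lower (-0.54, unadjusted p = 0.0419).

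Of 5 measured genes of mitochondrial calcium 2 were higher in AMI/S-endMSCs* than in AMI/S-endMSCs, where 4.1% of all probe sets were. They were SMDT1, a subunit of the mitochondrial calcium uniporter complex (1.13, unadjusted p = 0.0294), and VDAC2, an outer membrane channel. The remaining groups held no call in any comparison: 0 of 3 for other pumps and their regulators (ATP2A1, ATP2A3 and PPP1R1A) and 0 of 5 for extrusion from the cell (ATP2B1, ATP2B2, ATP2B4, SLC8A2 and SLC8A3). ATP2B2, a plasma membrane calcium pump, has a second, dimmer probe set, which was higher in AMI/S-endMSCs than in AMI/Placebo (0.58, unadjusted p = 0.0464) where the brighter did not pass (0.22, unadjusted p = 0.453).

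**Figure D5:**
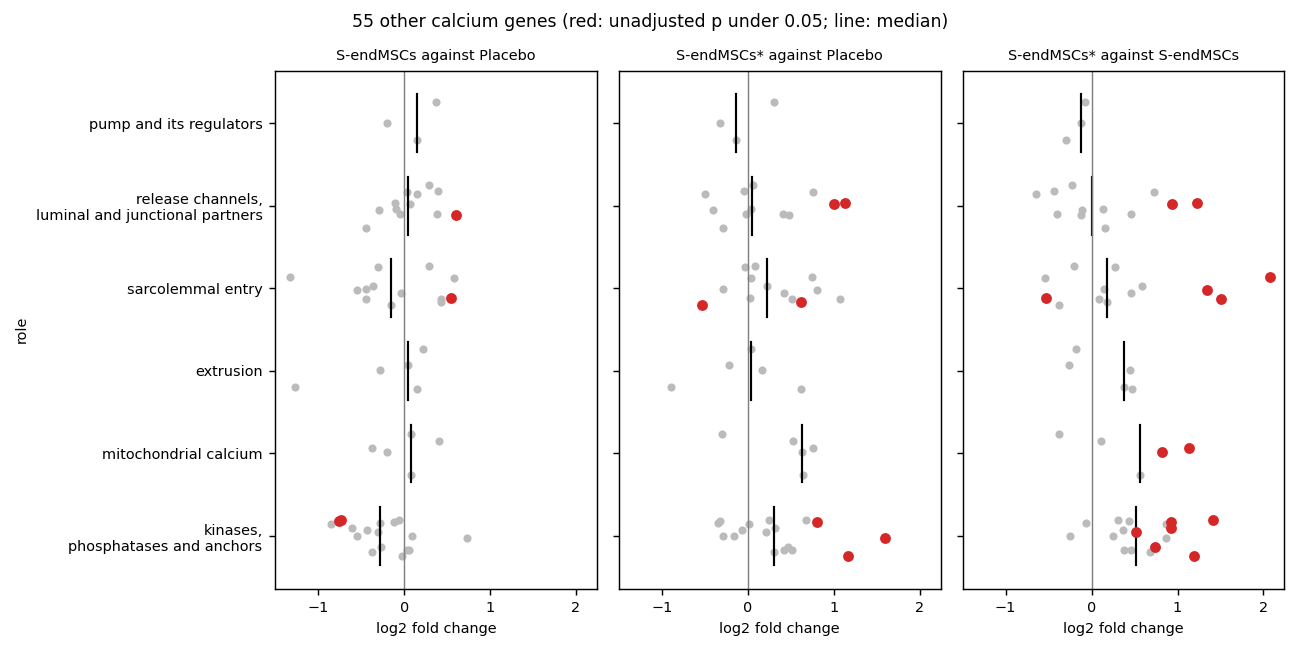
Log2 fold changes (horizontal axis) of 55 other calcium genes in the 3 comparisons, in rows by role, with called genes in red and the median of each row as a line. In the comparison of the treated biogroups 13 red points lie above 0 and 1 below, and the rows of pumps and of extrusion hold none.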

How the data were processed

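RNA of 12 infarct samples was labelled with the WT Pico kit and read on GeneChip Porcine Gene 1.1 ST arrays. The deposited values are log2 values that the authors made with RMA in the Bioconductor package oligo (version not given in the sources used here), by background correction, normalization between arrays and a summary per probe set. All 12 columns were mapped to biogroups by the labels. The platform table gave 1 symbol to 11982 of 27558 probe sets, several to 373 and none to 15203, and no symbol was altered here. Positions and sequences are not given.

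All probe sets and 12 arrays entered 1 limma 3.58.1 model (lmFit, eBayes; R 4.3.3) with a coefficient for each biogroup. The probe set that was brightest on average stood for a gene, which counted as called below an unadjusted p of 0.05, as the methods of the study set it. Adjusted p-values are Benjamini-Hochberg values over all probe sets. Slopes on the mean of 15 contractile markers come from the same model with that mean added. Differences of PLN or SLN and ATP2A2 were compared by exact permutation over pigs. The fit was tested on simulated data. The genes and lists were chosen with earlier results of these data known. All 6 genes were named, of the other calcium genes those called, up to 8 per comparison by size of change (others that are named were chosen after their values were seen), and the 5 genes most like the mean of the 6. Precision is limited by having 4 arrays in a biogroup. Figures were drawn with Python 3.11.15.

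As alternatives each array was left out in turn, the marker mean or the replicate number was added to the model, arrays were weighted, median centred or quantile normalized, dim probe sets were removed, moderation was changed, only the compared biogroups were fitted, and probe sets of a gene were averaged. The interquartile range of an array as a covariate and the slopes without each array were added after seeing the data.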

Additional observations from a re-analysis of the deposited data

Results flagged for a closer look

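Within a biogroup of 4 pigs, 9 of 27 sets of values had a pig whose gap to the nearest other pig, as a share of the whole range, was above the 95% critical value of Dixon's test, which chance gives in about 1 of 20. The sets share pigs, so these are not 9 separate events. AMI/S-endMSCs replicate 1 was low for ATP2A2 (share of the range 0.852), PLN (0.843) and CAMK2D (0.860), and it was also the array with the lowest interquartile range. AMI/S-endMSCs* replicate 2 was low for PLN (0.920), RYR2 (0.892), PLN minus ATP2A2 (0.878) and the mean of the contractile markers (0.916). SLN was high in AMI/S-endMSCs* replicate 1 (0.951) and in AMI/S-endMSCs replicate 3 (0.836), where its log2 value was 2.15 and the next was 1.49.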

How the results depend on the processing

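In AMI/S-endMSCs against AMI/Placebo 0 of the 6 genes were called under all 23 alternatives. In AMI/S-endMSCs* against AMI/Placebo 0 were called, but 3 with array weights, 1 with the compared biogroups alone, 1 with the array contrast as a covariate and 0 to 4 with an array left out. Between the treated biogroups 5 were called, but 2 without variance moderation, 0 with the marker covariate and 2 to 5 with an array left out. They were 4 after quantile normalization, where RYR2 was lost (unadjusted p = 0.0564), and 4 with the compared biogroups alone or the array contrast as a covariate, where CAMK2D was lost (unadjusted p = 0.0502 and 0.0593). The calls of ATP2A2 and PLN there were lost with the marker covariate and kept under the other 22. Log2 fold changes turned sign with that covariate for RYR2 in each comparison (0.059, -0.10 and -0.16, in the order of the report), CASQ2 in the first (0.041) and CAMK2D in the second (-0.26). That of SLN ran from -0.49 to 0.95 in the second and from -0.10 to 1.34 in the last with an array left out, and its slope on the markers from -0.061 to 0.33.

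Of the 55 other calcium genes, 4, 7 and 14 were called. The first was 1 with the filter on dim probe sets, 2 with the compared biogroups alone, 1 with the array contrast as a covariate and 1 to 8 with an array left out. The second was 4 with the filter, 4 without moderation, 15 with array weights, 1 with the marker covariate and 1 to 14 with an array left out. The last was 8 without moderation, 2 with the marker covariate and 4 to 15 with an array left out. With an array left out, PLN minus ATP2A2 ran from -0.56 to 0.015, from -0.043 to 0.53 and from 0.38 to 0.82, and SLN minus ATP2A2 from -0.20 to 0.41, from -1.13 to 0.35 and from -1.22 to 0.26. After quantile normalization the first of the latter was -0.018. The causes were not tested. Between pigs with the same replicate number, 4 of 12 correlations of deviations were over 0.1, and they ran from -0.18 to 0.40. The highest was that of replicate 4 in AMI/S-endMSCs* and AMI/Placebo. Whether the numbers pair the pigs was not tested. With the number as a replicate block 0, 0 and 5 of the 6 genes and 4, 8 and 13 of the others were called. Of all probe sets 1630, 1075 and 2163 were.

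Over all probe sets the counts of calls, 1420, 925 and 2020, moved by over 1.5 times under some settings. With the filter, which tested 13779 probe sets, they were 620, 517 and 1200. The first was 2621 with array weights, 912 and 850 without AMI/Placebo replicates 1 and 2, 2904 without AMI/Placebo replicate 4, 823 without AMI/S-endMSCs replicate 1 and 2518 without AMI/S-endMSCs replicate 3. The second was 2251 with array weights, 1575 without AMI/Placebo replicate 4, 1969 without AMI/S-endMSCs* replicate 2 and 1420 with the array contrast as a covariate. The last was 1080 with the marker covariate, 1338 without AMI/S-endMSCs replicate 1 and 1292 without AMI/S-endMSCs* replicate 3. After adjustment 84 probe sets passed in the last comparison without AMI/S-endMSCs* replicate 2 and 1 without AMI/S-endMSCs replicate 3. Among the 6 genes the smallest adjusted p under any alternative was 0.0568, for PLN between the treated biogroups. It came from the fit without AMI/S-endMSCs* replicate 2, the pig of that biogroup with the lowest PLN value.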

Other observations

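The probe sets that set AMI/S-endMSCs* replicate 1 apart were listed after the value of SLN had been seen. There, 8 of 27558 probe sets lay more than 2 log2 units above the highest of the other 11 arrays. In the other arrays 1 to 6 did, apart from AMI/S-endMSCs replicate 1 with 47. Of the 8, 3 carried a name: NPPA, whose gap was 3.38, SLN with 2.90 and GADD45G, a stress induced gene, with 2.24.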
